A study of Bos taurus with 30 samples.

Results

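Transcripts of 3 enzymes of fatty acid synthesis were followed in the livers of 30 heifer calves: acetyl-CoA carboxylase 1 (ACACA, ENSBTAG00000017567), fatty acid synthase (FASN, ENSBTAG00000015980) and stearoyl-CoA desaturase (SCD, ENSBTAG00000045728). The 3 rows were taken by identifier out of a table of 24596 genes. The table gives identifiers without symbols, the symbols came with the selection of the 3 genes, and 0 identifiers could be matched to a symbol in the RefSeq gene table, so the pairing was not checked here. The calves were Holstein-Friesian X Angus crosses, sampled once at 21 weeks of age, and each library came from a separately tagged calf. From 2 weeks of age, 15 calves had a High plane of nutrition with a target gain of 1.2 kg a day, and 15 had a Moderate plane with a target of 0.5 kg a day. Through the 8 weeks of the calf phase the daily milk replacer was 1.5 kg in 10 litres for High calves, and their concentrates were unrestricted. Moderate calves had 0.5 kg in 4 litres and 1 kg of concentrates. Over the next 11 weeks, after weaning, all calves ate hay to appetite, with unrestricted concentrates for High and 1 kg for Moderate. The question was whether liver transcripts of these enzymes differed between the planes of nutrition, and how the enzymes varied together among calves on the same feed.

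The 3 enzymes act in sequence. ACACA carboxylates acetyl-CoA to malonyl-CoA, the committed step of fatty acid synthesis. FASN, a large multifunctional enzyme, uses malonyl-CoA to extend the chain to palmitate, and SCD puts the first double bond into saturated fatty acyl-CoA, giving the monounsaturated acids found in stored fat and membranes. Transcription of all of them is promoted by the sterol regulatory element-binding protein SREBP-1c and answers to insulin and feeding in many mammals. In ruminants adipose tissue is the main site of fatty acid synthesis, acetate is its main carbon source, and the liver contributes less.

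Libraries held between 11528471 and 17906182 reads, and 12913 genes, the 3 enzymes among them, were abundant enough to test. Levels are given in scaled CPM, which is reads per 1000000 of a library's total after the authors' scaling, and 1 read was worth 0.0554 to 0.0955 scaled CPM. The extraction text in the labels names hypothalamus, whereas title, source and tissue say liver, and marker genes could not be looked up without symbols. Moderate replicates 4, 5 and 6 correlated least with the mean of the other libraries (0.978, 0.977 and 0.976). Within diets, 12 relations of the enzymes to total reads, genes detected, the share of the 10 most abundant genes and that likeness were computed. Pearson r ran from -0.193 to 0.252, and 0 of 12 passed (permutation tests, smallest adjusted p = 0.907 for r and 0.839 for rho). The r of SCD with likeness was 0.252 (Spearman rho 0.296; permutation p = 0.182 and 0.114). This r became 0.401 without the 2 libraries farthest from the median, a value that was not tested and is not among the 12. With no batch named in the labels, nothing could be recomputed by batch.

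None of the 3 enzymes passed the test for a difference between the planes of nutrition. By limma 0 of 3 passed an adjusted p of 0.05 and 0 had an unadjusted p below 0.05, and the same counts, 0 and 0, came from edgeR's quasi-likelihood test and from DESeq2. Over all tested genes limma called 12%, with 6.32% higher and 5.69% lower in High, edgeR called 12.4% and DESeq2 13.9%. With plain CPM the limma calls split into 630 higher and 1097 lower, against 816 and 735 with the deposited scaling. The 3 enzymes together took 0.0254% ± 0.0120 of reads in High livers and 0.0240% ± 0.0215 in Moderate livers (SD, n = 15 each). In bulk liver, fewer cells of a type and less RNA per cell cannot be told apart.

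ACACA was the steadiest of the enzymes. High livers ran from 24.5 to 69.4 scaled CPM around a median of 54.1, and Moderate livers from 23.0 to 84.4 around a median of 39.4. The ranges overlapped almost completely, with 2 Moderate calves above all High calves and 2 below them. Means were 49.8 ± 12.6 among High and 44.8 ± 19.1 among Moderate calves (SD, n = 15 each), and 12 of 15 High calves lay above the Moderate median. The log2 fold change, on log2(scaled CPM + 0.5), was 0.21 (SE 0.17, 95% interval -0.13 to 0.56; limma, adjusted p = 0.494). A change between 0.911-fold and 1.48-fold was therefore within the interval.

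FASN had the largest fold change of the 3, and its interval still included no change. High livers ranged from 45.2 to 340.4 scaled CPM with a median of 137.0. Moderate livers ranged from 20.9 to 396.8 with a median of 67.7. The lowest 5 libraries were all Moderate and so was the highest one, Moderate replicate 13, while 13 of 15 High calves exceeded the Moderate median. Mean FASN was 153.8 ± 89.4 among High and 116.2 ± 113 among Moderate calves (SD, n = 15 each). The log2 fold change was 0.74 (SE 0.38, 95% interval -0.027 to 1.51; limma, adjusted p = 0.226), a 1.67-fold higher geometric level with an interval of 0.982 to 2.85. Fits on the recovered reads, which weigh arithmetic means, gave 0.41 with edgeR (adjusted p = 0.573) and 0.40 with DESeq2 (adjusted p = 0.598). Without Moderate replicates 4, 5 and 6 limma gave 0.59 (adjusted p = 0.396). Leaving out single libraries moved the limma value between 0.61 and 0.91 (adjusted p from 0.0948 to 0.343), and 0 of 30 cases passed. The unadjusted limma p was 0.0581 with all libraries. With single libraries left out it ran from 0.0157 without Moderate replicate 13 to 0.109 without Moderate replicate 11.

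SCD had the widest Moderate range of the 3 as a ratio of highest to lowest. High livers held 21.6 to 112.5 scaled CPM (median 47.6). Moderate livers held 4.16 to 265.4 (median 33.2). Of the 15 Moderate calves, 4 lay above all High calves and 5 below all of them, while 0 High calves lay outside the Moderate range, as was also the case for ACACA and FASN. The direction depended on the scale of averaging. Arithmetic means were 55.2 ± 30.9 in High and 75.4 ± 85.9 in Moderate (each SD, n = 15), with an adjusted p of 0.410 over the 3 enzymes by permutation test, whereas geometric means were 47.7 and 38.4. On the log2 scale the fold change was 0.31 (SE 0.49, 95% interval -0.68 to 1.29; limma, adjusted p = 0.763), whereas edgeR gave -0.45 (adjusted p = 0.613) and DESeq2 -0.45 (adjusted p = 0.625). Without Moderate replicates 4, 5 and 6 the limma value was 0.12 (adjusted p = 0.919), and leaving out single libraries moved it between 0.088 and 0.50.

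**Figure D1:**
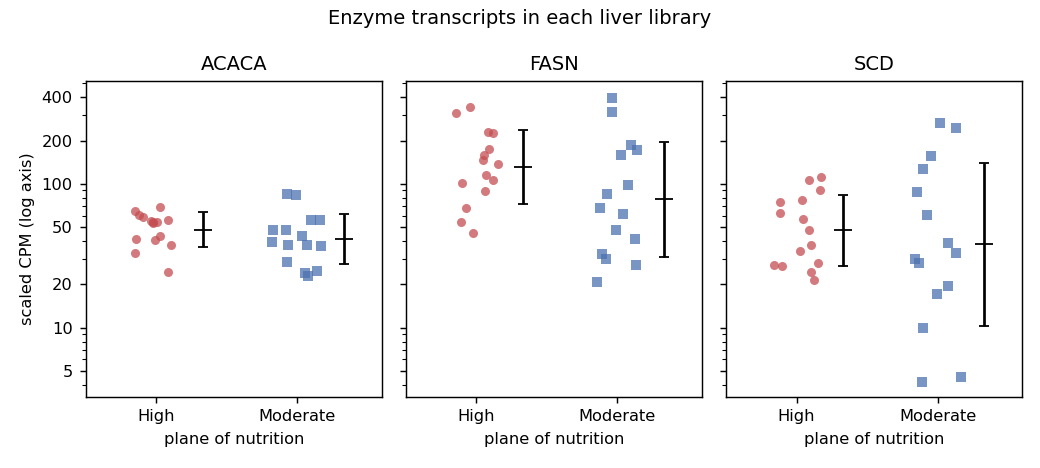
Scaled CPM (log axis) of ACACA, FASN and SCD in each liver library, High as circles and Moderate as squares, 15 calves each, with the geometric mean and 1 SD of the log2 values beside the points. High SCD values, 21.6 to 112.5, lie inside the Moderate range of 4.16 to 265.4.

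Counting noise was small beside these ranges. The thinnest value was SCD in Moderate replicate 11, with 59 reads, or 4.16 scaled CPM with an exact 95% Poisson interval of 3.17 to 5.36. The thickest SCD value was that of Moderate replicate 7, with 4087 reads, or 265.4 scaled CPM (257.4 to 273.7). These intervals cover counting error only.

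Calves on the same feed differed widely in SCD and FASN and less in ACACA. Among Moderate calves the highest level was 63.8 times the lowest for SCD, 19.0 times for FASN and 3.68 times for ACACA. Among High calves the same ratios were 5.21, 7.53 and 2.83. As an SD on the log2 scale, SCD had 1.85 in Moderate and 0.81 in High, FASN 1.32 and 0.86, and ACACA 0.58 and 0.40. The median tested gene had 0.264 in Moderate and 0.251 in High. In Moderate livers SCD ranked 14 of 12913 tested genes by this SD, FASN 62 and ACACA 832. In High livers FASN ranked 235, SCD 278 and ACACA 2154. SCD and FASN thus stood among the most variable liver transcripts on either feed, a description that was not tested.

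The wider spread in Moderate calves did not pass the test for any enzyme. The mean absolute deviation of SCD from its diet median was 0.704 in High and 1.46 in Moderate on the log2 scale. The difference of -0.75 had an unadjusted permutation p of 0.0174 and an adjusted p of 0.0523 over the 3 enzymes. For FASN the deviations were 0.679 and 1.08 (permutation test, adjusted p = 0.141), and for ACACA 0.297 and 0.443 (permutation test, adjusted p = 0.249). Adjusted, 0 of 3 passed, and 1 of 3 had an unadjusted p below 0.05. The SCD result sat at the threshold. Measured as the log2 ratio of SDs, High over Moderate, it was -1.19 and passed (permutation test, adjusted p = 0.0165), while without Moderate replicates 4, 5 and 6 it had an adjusted p of 0.114. With 1 library left out at a time its adjusted p ran from 0.0188 to 0.103 and was below 0.05 in 9 of 30 cases. Of all tested genes, 0.728% had a lower log2 SD ratio than SCD.

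**Figure D2:**
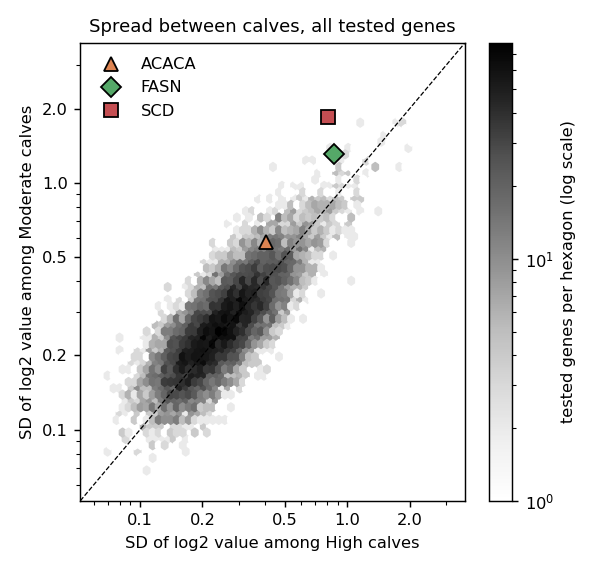
SD of log2(scaled CPM + 0.5) among the 15 High calves (x) and the 15 Moderate calves (y) for 12913 tested genes, on log axes, shaded by the number of genes per hexagon, with the 3 enzymes marked. All 3 enzymes lie above the dashed line of equal SD, SCD farthest from it at 0.81 and 1.85.

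Among calves on the same feed, r was positive in all 6 pairings of enzymes and passed the test in 5 of them. The r of SCD and ACACA in High, 0.495, fell just short of the threshold. FASN and ACACA correlated at r = 0.880 in High calves (Spearman rho 0.911, n = 15). For r the permutation p was 1e-05, and 100000 resamples can give no smaller one (adjusted p = 6.00e-05 over 6 correlations). In Moderate calves the r of FASN and ACACA was 0.799 (rho 0.768, n = 15; permutation p = 4.40e-04, adjusted p = 6.60e-04). Without the 2 calves farthest from the median of FASN these values were 0.792 and 0.720. A calf with much carboxylase transcript thus also had much synthase transcript, on either feed.

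SCD followed FASN most closely in Moderate calves, with r = 0.906 (rho 0.882, n = 15; permutation p = 2.00e-05, adjusted p = 6.00e-05). In High calves r was 0.639 (rho 0.604, n = 15; permutation p = 0.0113, adjusted p = 0.0136). The High relation passed with any 1 of the 15 High libraries left out (r 0.571 to 0.696; permutation test, adjusted p from 0.00791 to 0.0411). Without the 2 calves farthest from the median of FASN it was 0.554 and did not pass (permutation p = 0.0510, adjusted p = 0.0612). The Moderate value became 0.853 and passed (permutation p = 2.00e-04). Leaving out these calves also narrows the range of FASN, so a lower r does not by itself show dependence on them. SCD and ACACA correlated at 0.823 in Moderate (rho 0.796, n = 15; permutation p = 2.60e-04, adjusted p = 5.20e-04). In High the value was 0.495 and did not pass (n = 15; permutation p and adjusted p = 0.0581), although the rho of 0.554 did (permutation test, adjusted p = 0.0345), and the adjusted p of r ran from 0.0269 to 0.118 with 1 High library left out. Without the 2 calves farthest from the median of SCD these were 0.774 and 0.462. With Moderate replicates 4, 5 and 6 left out, the 3 Moderate correlations were 0.853 for FASN and ACACA, 0.900 for FASN and SCD, and 0.821 for SCD and ACACA (n = 12).

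**Figure D3:**
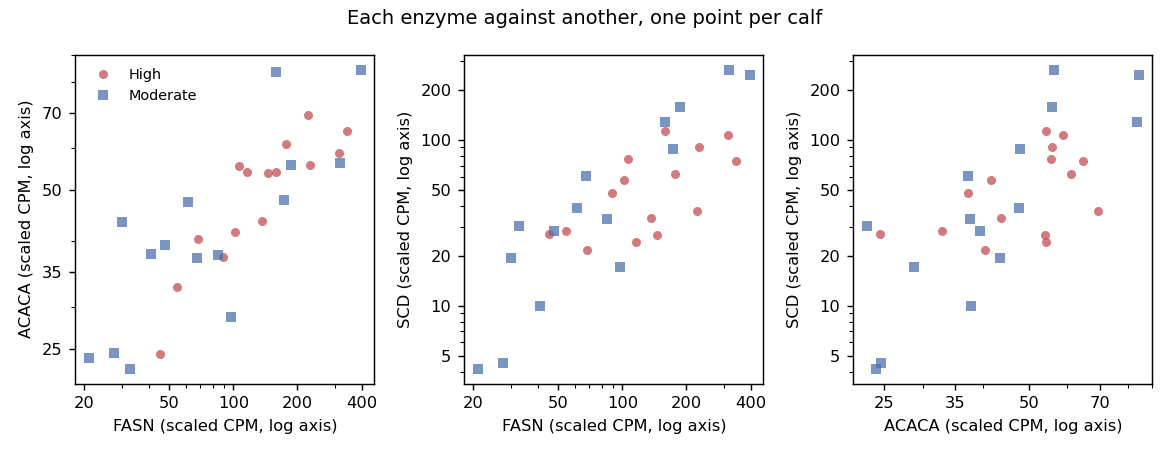
Each enzyme against another in scaled CPM on log axes, 1 point per calf, High as circles and Moderate as squares (n = 15 each). Points climb together in every panel, with r from 0.799 to 0.906 in Moderate and from 0.495 to 0.880 in High.

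The looser tie of SCD to the other enzymes in High calves was tested as a difference between diets and did not pass. High minus Moderate, r differed by -0.267 for FASN and SCD (0.639 against 0.906) and by -0.328 for SCD and ACACA (0.495 against 0.823). Unadjusted permutation p-values were 0.0290 and 0.0446, and the adjusted p was 0.0669 for both. For FASN and ACACA the difference was 0.081 (0.880 against 0.799; permutation test, adjusted p = 0.526). With adjustment 0 of 3 passed and without it 2 of 3 had a p below 0.05. Diet labels were permuted over values centred on each diet mean but not scaled to equal spread. The SD of SCD on the log2 scale was 0.81 in High and 1.85 in Moderate. The p-values therefore cannot separate a difference in r from a difference in spread. For both of the larger differences the adjusted call was the same in all 4 alternative settings and changed only when certain single libraries were left out. With Spearman's rho the unadjusted permutation p was 0.147 for FASN and SCD and 0.170 for SCD and ACACA (adjusted p = 0.255 for both). Without Moderate replicates 4, 5 and 6 the differences in r were little changed, -0.261 for FASN and SCD and -0.325 for SCD and ACACA. With these 27 libraries the adjusted p was 0.140 for both (permutation test). With 1 library left out at a time the adjusted p ran from 0.0175 to 0.152 for FASN and SCD, and from 0.0310 to 0.152 for SCD and ACACA. It was below 0.05 in 6 of 30 cases for FASN and SCD and in 4 of 30 for SCD and ACACA.

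The sizes of the shared movement differed by enzyme. For each doubling of FASN between calves, the fitted line for ACACA moved by 0.41 log2 units in High and 0.35 in Moderate. The line for SCD moved by 0.60 in High and 1.28 in Moderate. FASN shared 82.1% of the log2 variance of SCD in Moderate and 40.9% in High, against 63.8% and 77.4% of that of ACACA. Differences between these slopes were not tested.

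The highest calves were shared by all 3 enzymes in Moderate and in part in High. In Moderate, the 5 calves highest in each enzyme were the same 5, namely replicates 1, 6, 7, 10 and 13. Their SCD ran from 88.5 scaled CPM in replicate 10 to 265.4 in replicate 7, and their FASN from 158.6 in replicate 6 to 396.8 in replicate 13. Replicate 6 of this set was the library least like the others. At the other end, replicates 4 and 11 were among the lowest 5 for every enzyme. Replicate 11 held 24.0 scaled CPM of ACACA, 20.9 of FASN and 4.16 of SCD, and replicate 4, another of the 3 least typical libraries, held 24.6, 27.4 and 4.50. In High, replicates 1, 3 and 10 were in the top 5 for all enzymes and replicates 9, 13 and 15 in the bottom 5. Replicate 3 was in the top 5 for ACACA by a narrow margin, at 55.8 scaled CPM against 55.6 in replicate 5. The highest High calf differed by enzyme, and replicate 8, first in ACACA, held 37.4 scaled CPM of SCD, below the High median of 47.6.

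Set against all tested genes, FASN and ACACA ranked high as partners of each other on both feeds, and SCD ranked higher as a partner in Moderate than in High. In High, FASN ranked 2 of 12912 genes by r with ACACA, and ACACA ranked 6 by r with FASN, while SCD ranked 165 by r with FASN. SCD and ACACA were less close there, and their standing depended on which of the 2 was the reference. SCD ranked 702 by r with ACACA, and its r of 0.495 lay below the 95th percentile of all genes (0.505). ACACA ranked 269 by r with SCD, and the same r lay above the 95th percentile of r with SCD (0.406). In Moderate, SCD ranked 11 and ACACA 81 by r with FASN, and SCD ranked 13 by r with ACACA. The 95th percentile of r with FASN over all genes was 0.498 in High and 0.567 in Moderate, and the median was 0.0091 and -0.028. These ranks describe shared variation in the same libraries and carry no test.

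**Figure D4:**
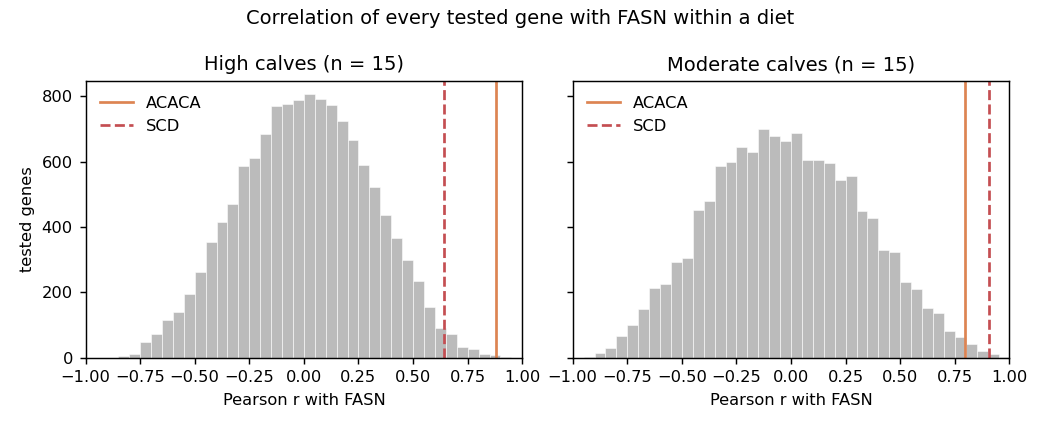
Number of tested genes by Pearson r with FASN, in bins of r, among High calves (left) and Moderate calves (right), with lines at ACACA (solid) and SCD (dashed). In Moderate both lines stand in the right tail, at 0.799 and 0.906, and in High ACACA stands at 0.880 and SCD at 0.639.

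The balance between the enzymes within a library did not differ detectably by feed. A ratio of scaled CPM depends on transcript length, so only its change between calves is read here. Ranges and medians are of plain ratios, and means and tests are of differences in log2(scaled CPM + 0.5), which without the pseudocount were 0.53 for FASN to ACACA, 0.42 for FASN to SCD and 0.11 for SCD to ACACA. The FASN to SCD ratio ran from 1.38 to 6.01 in High (median 2.82) and from 1.09 to 6.09 in Moderate (median 1.61). Its mean log2 was 1.45 ± 0.71 among High and 1.02 ± 0.86 among Moderate calves (SD, n = 15 each), and 13 of 15 High calves exceeded the Moderate median. The log2 difference was 0.44, with a 95% interval of -0.16 to 1.02 obtained by inverting the permutation test (adjusted p = 0.210 over 3 pairs).

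The FASN to ACACA ratio ran from 1.66 to 5.34 in High (median 2.71) and from 0.687 to 5.64 in Moderate (median 1.82). On the log2 scale the means were 1.44 ± 0.54 and 0.91 ± 0.92 (SD, n = 15 each), and again 13 of 15 High calves exceeded the Moderate median. The difference was 0.53 (95% interval -0.041 to 1.09; permutation test, adjusted p = 0.203), and it was 0.34 without Moderate replicates 4, 5 and 6. For SCD to ACACA, High ran from 0.449 to 2.08 (median 1.11) and Moderate from 0.173 to 4.71 (median 0.881). The log2 difference was 0.092 (95% interval -0.74 to 0.93; permutation test, adjusted p = 0.823), and it was -0.12 without those 3 libraries. With adjustment 0 of 3 ratios passed, and 0 of 3 had an unadjusted p below 0.05. The intervals leave room for shifts of about 1 log2 unit in the FASN ratios.

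**Figure D5:**
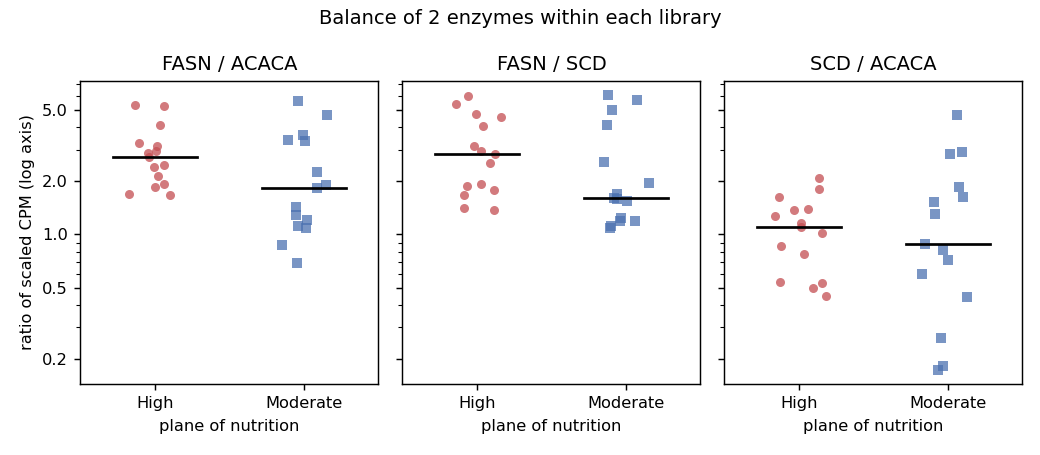
Ratio of scaled CPM of FASN to ACACA, FASN to SCD and SCD to ACACA in each library (log axis), High as circles and Moderate as squares, with bars at the medians (n = 15 each). Medians are 2.71 and 1.82 for FASN to ACACA and 2.82 and 1.61 for FASN to SCD, with overlapping groups in each panel.

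A small set of other genes followed the 3 enzymes closely from calf to calf. Each tested gene was correlated with the mean of the standardised enzymes, all centred on their diet means, over 30 libraries. The enzymes themselves had r of 0.916 (ACACA), 0.953 (FASN) and 0.920 (SCD) with that mean, of which each is a part. Of 12910 other genes, 28 reached r of 0.8 or more, up to 0.928, and 1 reached -0.8 or less (-0.822), against a median of -0.017 over all genes. The gene ranked first was ENSBTAG00000016465 (r = 0.928, with 0.865 in High and 0.961 in Moderate). Its level was 181.5 ± 71.9 scaled CPM among High and 160.2 ± 100.5 among Moderate calves (SD, n = 15 each; log2 fold change 0.31, limma, adjusted p = 0.514).

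ENSBTAG00000013303 ranked second (r = 0.926) with 129.8 ± 54.5 scaled CPM among High and 91.5 ± 82.0 among Moderate calves (SD, n = 15 each). Its log2 fold change of 0.87 (SE 0.34) did not pass by limma (adjusted p = 0.0965). It passed only when Moderate replicate 7 (1.02, adjusted p = 0.0327) or Moderate replicate 13 (1.00, adjusted p = 0.0403) was left out, among the settings and single libraries tried. ENSBTAG00000003367 (r = 0.920) was the first in rank with a negative log2 fold change, -0.28 (limma, adjusted p = 0.790; -0.65 with edgeR, and -0.44 to -0.090 with 1 library left out), with 6.04 ± 5.85 scaled CPM among High and 9.42 ± 10.8 among Moderate calves (SD, n = 15 each). The lowest level of ENSBTAG00000003367 was 0.255 scaled CPM in High, below the pseudocount of 0.5, and 0.775 in Moderate. Its r and log2 fold change thus rest in part on values of few reads. With a pseudocount of 0.1 the fold change was -0.31 and with 1 it was -0.26. The value of -0.090 was the one without High replicate 9. The table pairs none of these identifiers with a symbol.

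Genes that followed the enzymes within diets were then counted by their own difference between diets. At r of 0.8 or more, 3 of 28 were called by limma (10.7%, against 12% of all tested genes), 2 higher and 1 lower in High. At 0.6 or more there were 145 genes, of which 29 were called higher and 4 lower in High (22.8% called). At -0.6 or less there were 77 genes, of which 1 was called higher and 31 lower (41.6% called). Over all tested genes 6.32% were called higher and 5.69% lower. At the 0.6 cut, genes that moved with the enzymes from calf to calf thus had more higher than lower calls in High livers. Genes that moved against them had more lower than higher calls. The 3 calls at 0.8 or more were too few to read a direction. These counts are a description over genes that are not independent of each other, with no test.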

How the data were processed

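Polyadenylated RNA was sequenced from 30 samples labelled as liver, with a stranded TruSeq kit per the labels' protocols. FastQC 0.11.8, cutadapt 2.6, STAR 2.6.1, R 3.4, edgeR 3.5 and build UMD3.1 are named per the submitters' processing notes. Which program counted reads, by which annotation and strand setting, is not given in the sources used here. Deposited values are a scaled signal: reads per gene over the library total times a scaling factor, per 1000000 (scaled CPM). Whole reads were recovered for 100% of 471204 values above 0, within 0.001 of a read. Columns of no sample numbered 0.

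Limma 3.58.1 with a mean-variance trend was fitted on log2(scaled CPM + 0.5) for 12913 genes kept by edgeR's filterByExpr (10 reads), with Benjamini-Hochberg adjustment over all of them and a threshold of 0.05. On the recovered reads, edgeR 4.0.16's quasi-likelihood test called 1600 genes and DESeq2 1.42.0 called 1789, against 1551 by limma. Ratios, correlations and spreads used two-sided permutation tests with 100000 resamples, adjusted within each family. Scripts were tested on simulated data. Diet came from the diet label, and replicates were numbered in accession order, so numbers pair nothing. Each calf is a separate animal.

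The enzymes, tests and lists were chosen with earlier results of these data known. Genes other than the enzymes were named by rank of r with the mean enzyme value (the first 10), at most 2 higher and 2 lower in High, and 1 lower was found. The RefSeq table (ARS-UCD2.0) matched 0 identifiers, so pathway lists, cell type markers and promoter motifs were not run, and no position or sequence is given. Alternatives were 3 other scalings, 2 pseudocounts, no filter, 2 count tests, rank correlation, another measure of spread, arithmetic means (chosen after seeing the data), and libraries left out.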

Additional observations from a re-analysis of the deposited data

How the results depend on the processing

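Of 540 values under alternative settings for 18 results, 508 kept their direction and side of the threshold, 450 of the 540 being single libraries left out. The diet differences of FASN and ACACA kept theirs throughout. For SCD the diet difference turned negative with edgeR (-0.45), DESeq2 (-0.45) and arithmetic means (-20.2 scaled CPM), none of them called, and the arithmetic means were compared after seeing the data. The SCD to ACACA log-ratio difference turned to -0.12 without Moderate replicates 4, 5 and 6, and ran from -0.072 to 0.26 with 1 library left out, negative without Moderate replicate 4, 11 or 12. Within High, SCD and ACACA passed as Spearman's rho (0.554) and without High replicate 7, 8 or 14 (range of r 0.435 to 0.579), while FASN and SCD no longer passed without the 2 libraries farthest from the FASN median (0.554). The SCD spread difference passed as a log2 ratio of SDs (-1.19). With 1 library left out it ran from -0.86 to -0.64 and passed without High replicate 6 or 15 or Moderate replicate 2, 3, 5, 8, 9, 14 or 15. The difference in r between diets ran from -0.335 to -0.211 for FASN and SCD, passing without High replicate 9, 10 or 13 or Moderate replicate 2, 5 or 9. For SCD and ACACA it ran from -0.388 to -0.244, passing without High replicate 9 or 13 or Moderate replicate 5 or 9. The cause of these changes was not tested. No paired analysis was possible because the labels give no replicate numbers shared between the diets.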
